A study of Mus musculus with 132 samples.

Results

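The trophectoderm is the outer epithelium of the blastocyst and gives rise to the placenta, while the cells it encloses form the inner cell mass (ICM). A small set of transcription factors is known to set up and maintain the trophectoderm in the mouse. Hippo signalling keeps the coactivator YAP out of the nucleus of inner cells, whereas in outer cells, where it is off, YAP and the DNA-binding factor TEAD4 switch on Cdx2 and Gata3, and the later factors Eomes and Elf5 sustain trophoblast stem cells. Tfap2c and Klf5 act from earlier cleavage stages. The 10 factors described here are Cdx2, Gata3, Eomes, Elf3, Elf5, Tfap2a, Tfap2c, Id2, Klf5 and Ovol1. They were taken by symbol from the 32245 genes of the deposited count table, and all 10 were found there.

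These genes were measured in 132 single mouse embryo cells with Smart-seq2, a plate protocol that reads polyadenylated RNA along the length of transcripts. Embryos of C57BL/6 x DBA F1 matings were cultured from the 2-cell stage with either a synthetic mimic of the microRNA miR-381-3p or a scrambled negative control mimic. The groups were 30 control and 24 mimic cells at embryonic day 2.5 (the 8-cell stage) and 39 control and 39 mimic cells at embryonic day 3.5 (the 32-cell stage). The mimic and its control were added at 5 or 10 µM, the higher dose for the earlier stage, so stage and dose cannot be told apart. The cell titles of each stage also end in a letter of their own, so stage and title set coincide, and the labels do not say what the letter marks. The cells of each group were taken from 3 to 5 embryos, but no label ties a cell to its embryo.

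Because cells could not be assigned to embryos, each group counts as 1 sample, and no test between groups, standard error or p-value was possible. Values are counts per 1000000 counts (CPM) without mitochondrial genes, pooled over the cells of a group, and the 95% intervals of levels and ratios cover counting error of reads only. Intervals of shares of cells treat cells as independent, although cells may share embryos. All 39 control cells of the 32-cell stage held more Y-linked counts than Xist counts, whereas all 39 mimic cells held Xist counts above Y-linked counts. At the 8-cell stage the control held 23 cells with Xist and 7 with more Y-linked counts, and the mimic 14 and 8 with 2 cells of neither kind. The effect of the mimic at the 32-cell stage therefore cannot be told apart from that difference between the embryos, and the makeup also differed between the stages within each treatment. A run below is a stretch of neighbouring cell title numbers within 1 group, split by treatment where the numbers go on, and the labels do not say whether it marks a batch. Total counts ranged from 544866 to 3461022 per cell. Of 9 genes that mark follicle cells, fibroblasts and leukocytes, 4 had no count in any cell, and their summed level reached at most 0.864 CPM in a group.

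Which of the 10 transcripts could pair with the mimic was read from their annotated sequences. The mature strand, taken from RefSeq on GRCm38.p6 at chr12:109726870-109726891 on the plus strand, is shown with its seed (bases 2 to 8) in capitals, followed by the 2 stretches of members' 3′ untranslated regions (UTRs) that hold a match to that seed, with the match in capitals.
miR-381-3p: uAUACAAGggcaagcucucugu
Id2: attagagttttCTTGTATAgtggcagaaa
Klf5: ttgaagccgccCTTGTATcagaaacacgt

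The Id2 stretch lies at chr12:25094046-25094074 on the minus strand, and its match starts at base 521 of the longest annotated 3′ UTR of 785 bases. It is an 8-base match (CTTGTATA) and is present in 2 of the 3 Id2 transcripts annotated with a 3′ UTR. The Klf5 stretch lies at chr14:99304190-99304218 on the plus strand, with a 7-base match (CTTGTAT) at base 716 of 1841, in 1 of 2 transcripts. The longest 3′ UTRs of the other 8 members held no match. Among 20775 counted genes with an annotated 3′ UTR, 11.5% held the 7-base match and 3.11% the 8-base match. A match is a description of the sequence and was not measured as a bound site.

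Promoter windows from 250 bases before to 50 bases after the start were on hand for 7 members, in 9 windows. The starts are those of RefSeq transcripts, whereas the gene positions given below span all GENCODE transcripts and can begin further upstream, by 96 bases for Elf3, 410 for the Elf5 window named here, 21 for Cdx2 and 11434 for Gata3. Both strands were searched for core motifs of 3 factor families that act in the trophectoderm. The core searched for the TEAD family reads GGAATG. That of the TFAP2 family, to which Tfap2a and Tfap2c belong, reads GCCNNNGGC. For the GATA family, to which Gata3 belongs, the letters searched were AGATAA. No hit in a member overlapped another. A TEAD core stood 235 bases before the RefSeq start of Elf3 and 173 bases before that of Elf5, the latter inside the longer GENCODE gene. TFAP2 cores stood at 3 positions of the Gata3 window and at 1 position of the Cdx2 window, and no window of a member held the GATA core. Over 27025 windows of the same length, 14.6% held the TEAD core, 16.5% the TFAP2 core and 11.4% the GATA core. The Cdx2 core, 16 bases before the RefSeq start at chr5:147307247-147307275 on the minus strand, and 1 of the 3 Gata3 cores, 221 bases before the RefSeq start at chr2:9878803-9878831 on the minus strand, lie inside the GENCODE genes and are shown with the core in capitals.
Cdx2: atcacgtaagGCCGCTGGCctgggactcc
Gata3: gccctaggcgGCCCTTGGCggcgcccctt

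Per kilobase of annotated exon, Klf5 and Tfap2c led the 10 genes at the 8-cell stage. In control cells Klf5 stood at 109.7 CPM per kilobase and Tfap2c at 42.5, followed by Gata3 at 19.3 and Ovol1 at 18.8, whose counting intervals overlapped. Id2 (8.47), Cdx2 (4.53), Elf3 (3.56), Eomes (0.95) and Elf5 (0.0046) followed, and Tfap2a had no count. At the 32-cell stage Gata3 led in both treatments, with 386 CPM per kilobase in control and 339 in mimic cells. Elf3 (219) and Id2 (165.5) came next in control cells, and the same pair stood in the opposite order in mimic cells, with Id2 at 222 and Elf3 at 140. Ovol1 (6.18) and Eomes (5.69) were neighbours in control cells whose counting intervals overlapped. Elf5 was last at the 32-cell stage, at 0.18 and 0.080 CPM per kilobase.

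Between the 8-cell and the 32-cell stage, 6 of the 10 members were higher by 2-fold or more in control cells and 1 was lower. The same counts, 6 and 1, were found in mimic cells. A change here is a difference of log2(CPM + 1) between pooled groups, taken at 1 or more for genes with at least 5 CPM in either group, which 9 members had in both comparisons. Over all genes that met this minimum, 31.1% were higher and 22.5% lower in control cells, and 31.8% were higher and 20.2% lower in mimic cells. The median change of the tested members was 3.73 in control and 2.68 in mimic cells, beside 0.20 and 0.26 over all genes tested. With 8-cell cells of either kind alone, 7 members passed 2-fold in each treatment, as over all cells, but the sizes moved. With the 7 control cells of more Y-linked counts, like those of the 32-cell control, the log2 change in control cells was 6.03 in place of 3.73 for Cdx2, 1.09 in place of 2.32 for Eomes and 4.28 in place of 5.77 for Elf3. With the 14 mimic cells holding Xist, like those of the 32-cell mimic, the change in mimic cells was 3.21 in place of 2.68 for Cdx2 and 3.23 in place of 3.60 for Gata3.

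Positions of the genes are on GRCm38, and each lies at a single locus and codes for a protein. Cdx2 (chr5:147300805-147307270, minus strand), the caudal-type homeobox factor needed for a functional trophectoderm, went from 10.2 CPM (95% interval 9.23 to 11.3) in 8-cell control cells to 148.3 (145.2 to 151.5) at the 32-cell stage, a ratio of 14.5. In mimic cells it went from 12.8 to 87.7 CPM, a ratio of 6.83. At the 8-cell stage Cdx2 counts were found in 7 of 30 cells under the control and 8 of 24 under the mimic, and 1 control cell at 153.3 CPM carried 54.0% of the summed CPM of its group. At the 32-cell stage 34 of 39 control cells and 29 of 39 mimic cells held counts, with medians of 80.7 and 48.3 CPM and highest values of 501 and 289. The 8-cell level in control cells also differed between runs of titles, at 2.80 CPM in 28 cells and 99.3 CPM in the other 2. The log2 change between the stages in control cells was 3.73, and it was 0.57 against those 2 cells alone and 5.30 without them.

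Gata3 (chr2:9857078-9890034, minus strand), a zinc finger factor that acts beside Cdx2 downstream of TEAD4, had counts at the 8-cell stage in 22 of 30 control and 22 of 24 mimic cells. Its pooled level was 76.7 CPM in control and 110.7 in mimic cells there, and 1536 and 1350 CPM at the 32-cell stage, where every cell held counts. The lowest, median and highest 32-cell values were 78.8, 753 and 3899 CPM in control cells and 8.63, 848 and 3843 CPM in mimic cells. The stages overlapped in single cells, since the highest 8-cell values were 337 and 379 CPM.

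Elf3 (chr1:135253575-135258568, minus strand), an epithelial ETS-family factor, went from 7.89 CPM (7.01 to 8.86) to 485 (479 to 490) in control cells, or 61.4-fold. One 8-cell control cell at 192 CPM carried 71.3% of the summed CPM, and without it the log2 change grew from 5.77 to 7.38. In mimic cells Elf3 went from 15.7 to 311 CPM. It was detected in 6 of 30 and 6 of 24 cells at the 8-cell stage and in 39 and 38 of 39 cells at the 32-cell stage.

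Id2 (chr12:25093799-25097140, minus strand), an inhibitor of basic helix-loop-helix factors and an early mark of outer cells, was at 20.7 CPM in 8-cell control cells and 403 at the 32-cell stage. In mimic cells a single 8-cell count (0.032 CPM) stood against 540 CPM at the 32-cell stage. The ratio there was 16697 with a counting interval of 2997 to 659520, so its size is poorly fixed by 1 count. All 78 cells of the 32-cell stage held Id2.

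Eomes (chr9:118478212-118486132, plus strand), a T-box factor of trophoblast stem cells, and Tfap2a (chr13:40715302-40738376, minus strand), an AP-2 factor, stayed low. Eomes went from 3.95 to 23.7 CPM in control cells and from 3.49 to 35.6 in mimic cells, and at the 32-cell stage it was found in 25 and 27 of 39 cells. Tfap2a had no count in 30 control cells at the 8-cell stage, where 3 counts would be 0.0817 CPM, and 13.0 CPM at the 32-cell stage. That is 159.5-fold the level of 3 counts, and the counting interval of the ratio starts at 129.4. In mimic cells Tfap2a went from 0.42 to 7.63 CPM. Elf5 (chr2:103411688-103450989, plus strand), an ETS-family factor of trophoblast stem cells, stayed under the 5 CPM minimum throughout: 2 of 39 cells held counts in either 32-cell group, and its pooled level was 1.05 CPM in control and 0.47 in mimic cells.

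Ovol1 (chr19:5549136-5560646, minus strand), a zinc finger factor of epithelia and trophoblast, was the 1 member that was lower by 2-fold or more at the 32-cell stage. It went from 65.7 to 21.6 CPM in control cells and from 88.6 to 21.2 in mimic cells. Counts were found in 18 of 30 and 17 of 24 cells at the 8-cell stage and in 8 and 13 of 39 cells at the 32-cell stage. One 32-cell control cell at 290 CPM carried 48.4% of the summed CPM of its group. The control difference depended on the runs. Its log2 change of -1.56 was -0.72 against the 2 8-cell control cells of the smaller run alone. With the 32-cell control runs of 24 and 15 cells taken alone it was -0.98 and -3.49, so it missed 2-fold in the first of them. The library was not strand-specific, and Ovol1 shares 690 exon bases with a processed pseudogene on the opposite strand and 76 with an antisense gene, so their reads cannot be told apart. Exons of Elf3, Eomes, Gata3 and Tfap2a also overlap antisense genes, by 73 to 380 bases each.

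Tfap2c and Klf5 were found in nearly all cells at both stages. Tfap2c (chr2:172549593-172558622, plus strand), an AP-2 factor already active in cleavage, was at 156.3 CPM in 8-cell and 199 in 32-cell control cells, with log2 changes of 0.35 in control and 0.82 in mimic cells. Klf5 (chr14:99298691-99315036, plus strand), a Krüppel-like factor needed for trophectoderm formation, was at 571 and 441 CPM in control cells and 491 and 569 in mimic cells. Klf5 was found in all 132 cells, the lowest of which held 104.6 CPM. Several of the stage differences moved with 1 cell. Leaving out 1 cell at a time brought the log2 change in control cells to as much as 4.80 for Cdx2, 3.22 for Eomes, 5.15 for Id2 and -2.41 for Ovol1, and in mimic cells to 3.39 for Cdx2 and 3.88 for Eomes, with the direction of each kept.

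**Figure D1:**
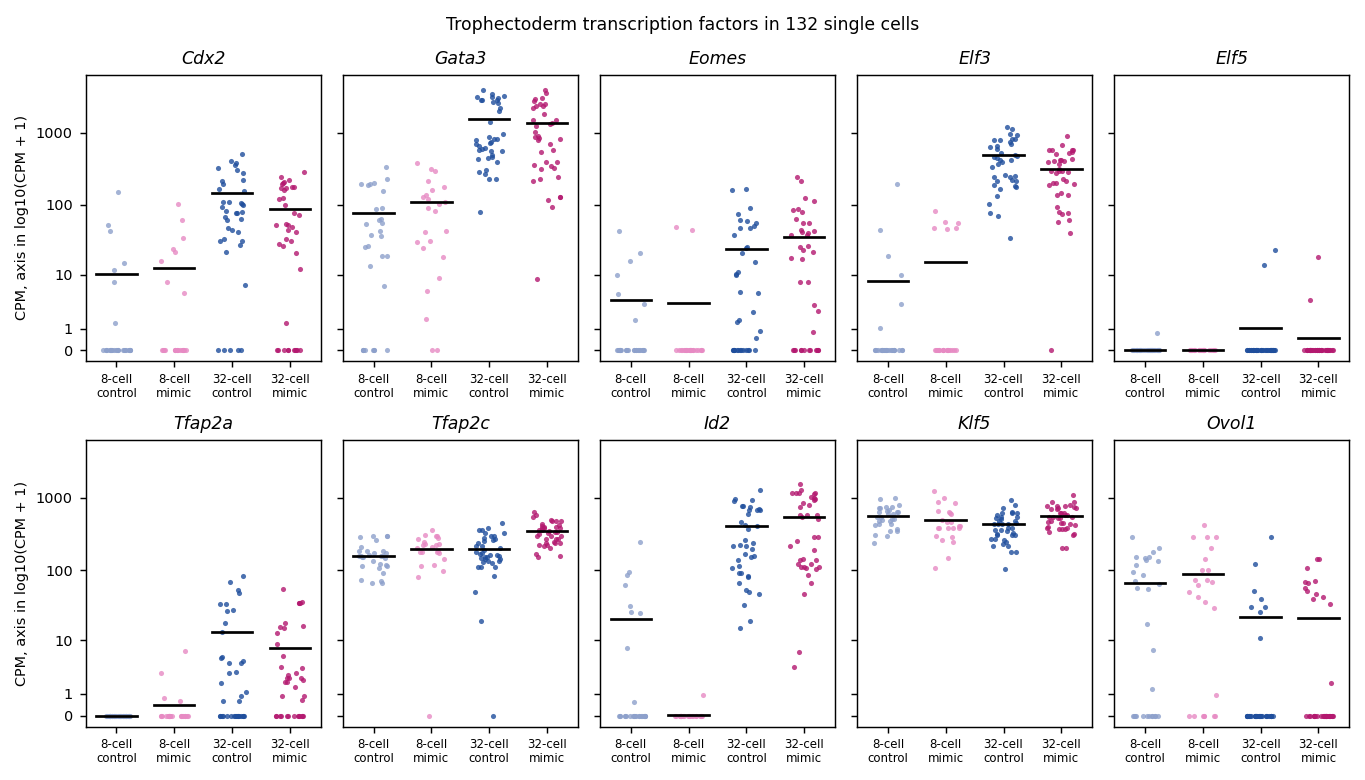
Each point is 1 cell and each black bar the pooled CPM of a group, with the 4 groups along the horizontal axis and CPM on an axis scaled as log10(CPM + 1). Gata3, Elf3 and Id2 move from a mix of cells at 0 and above 0 at the 8-cell stage to counts in 38 or 39 of 39 cells at the 32-cell stage, whereas Klf5 is present in all 132 cells and Ovol1 is detected in 8 and 13 of 39 cells at the 32-cell stage.

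Other genes of the pathway, from lists drawn up with earlier results of these data known, moved as follows between the stages. In control and in mimic cells, 11 and 11 of the 13 upstream regulators, 13 and 15 of the 15 effectors, 9 and 7 of the 12 other trophoblast factors, 11 and 11 of the 19 paralogues and all 8 pluripotency factors met the 5 CPM minimum, and the shares over all genes are those given above. Of 13 upstream regulators of the Hippo and Notch pathways, 0 were higher and 3 lower by 2-fold in control cells, and 1 was higher and 5 lower in mimic cells. Tead4 had the largest change of them, from 644 to 79.6 CPM in control and from 503 to 66.7 in mimic cells. Of 15 trophectoderm effectors (keratins, junction, transport and receptor genes), 8 were higher and 1 lower in control cells and 10 were higher and 0 lower in mimic cells. The endocytic receptor gene Lrp2 led them, from 16.7 to 718 CPM in control cells. Of 12 other trophoblast transcription factors, 3 were higher and 3 lower in either treatment. Hand1, a factor of trophoblast giant cells, was lower at the 32-cell stage, from 265 to 1.48 CPM in control and from 158.03 to 0.094 in mimic cells. Of 19 paralogues of the members, 3 were higher and 4 lower in control cells and 2 were higher and 5 lower in mimic cells, with Klf6 going from 3.97 to 239 CPM and Klf17 from 331 to 5.47 in control cells. Of 8 pluripotency factors, 3 were higher and 1 lower in control cells and 3 were higher and 3 lower in mimic cells.

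The treatment comparison asked how raising this microRNA changes the expression of lineage genes in the early embryo. At the 8-cell stage 1 member, Id2, differed by 2-fold or more between mimic and control cells. Of 10 members, 7 met the 5 CPM minimum, and 0 were higher and 1 lower, beside 11.02% of all tested genes that were higher and 10.8% that were lower. The tested members' median change was 0.35, beside 0.018 over all genes tested.

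Id2 was held by 9 of 30 control cells, with a lowest, median and highest level of 0.56, 31.7 and 242 CPM among those 9, and by 1 of 24 mimic cells, at 0.95 CPM. The pooled levels were 20.7 CPM (19.2 to 22.2) from 759 counts in control cells and 0.032 CPM (0.00082 to 0.18) from 1 count in mimic cells. The log2 change was -4.39. The share of cells with a count was 30% (exact binomial interval 14.7 to 49.4) against 4.17% (0.11 to 21.1), in intervals that treat cells as independent although they may share embryos. Thinning every cell to 522178 counts left 9 and 1 cells with a count. All 9 of these control cells belong to the run of 28 cells, and both cells of the other control run, whose title numbers directly follow those of the mimic cells, were at 0, so that the log2 change against that run alone was 0.046. The control cell with the highest level held 42.2% of the summed CPM, and without it the change was -3.46. The same direction was found among cells with Xist counts, at 23.3 CPM in 6 of 23 control cells and no count in 14 mimic cells, where 3 counts would be 0.15 CPM. Among cells with more Y-linked than Xist counts it was at 14.3 CPM in 3 of 7 control cells and at 0.12 CPM in 1 of 8 mimic cells. Of the 2 members with a seed match printed above, Id2 was thus lower in mimic cells at this stage and Klf5 had a log2 change of -0.22, from 571 to 491 CPM, while at the 32-cell stage both changes were above 0, at 0.42 and 0.37.

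For Elf3, Cdx2 and Eomes the 8-cell differences rested on few cells. Elf3 was at 7.89 CPM in control and 15.7 in mimic cells. Its log2 change of 0.91 lay just inside the 2-fold limit and passed that limit when any 1 of 3 cells was left out. Among cells with Xist counts Elf3 was at 1.12 CPM in control and 17.7 in mimic cells, but among cells with more Y-linked counts it was at 23.99 and 6.86 CPM. The change of Cdx2 was 0.30 over all cells and had no settled direction. It was 1.86 without the run of 2 control cells and -2.86 against those 2 cells alone, between -0.41 and 1.37 with 1 cell left out, and -0.65 among cells with Xist and 1.59 among cells with more Y-linked counts. Eomes was found in 7 of 30 control and 2 of 24 mimic cells at like pooled levels of 3.95 and 3.49 CPM, since both mimic cells held 44.4 CPM or more. The changes of Gata3, Tfap2c, Klf5 and Ovol1 lay between -0.22 and 0.52 over all cells, and leaving out any 1 cell brought none of them past 2-fold. Gata3 turned with the kind of cell, from 1.12 among cells with Xist (65.2 against 143.1 CPM) to -0.50 among cells with more Y-linked counts (104.2 against 73.3). Against the run of 2 control cells alone, Ovol1 was at 1.27, Tfap2c at -0.17 and Klf5 at -0.77. One mimic cell had 3243 genes with a count, while the next lowest in that group had 4614, and leaving it out kept the counts at 0 higher and 1 lower.

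Among the other lists at the 8-cell stage, 12 upstream regulators, 13 effectors, 6 other trophoblast factors, 10 paralogues and 7 pluripotency factors met the minimum. Id1, which like Id2 encodes an inhibitor that binds basic helix-loop-helix partners, had no count in 30 control cells and 12.5 CPM in mimic cells, where 5 of 24 cells held counts and 1 cell carried 52.9% of the summed CPM. Of the 19 paralogues 1 was higher and 2 were lower. The upstream regulators had 1 higher (Lats2, from 43.7 to 119 CPM) and 1 lower (Tead2), and the effectors had 2 higher (Dsp and Krt18) and 1 lower (Lrp2). Of the other trophoblast factors 0 were higher and 2 lower (Dlx3 and Grhl1), and of the pluripotency factors 0 were higher and 1, Nanog, was lower, from 100.4 to 32.2 CPM.

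At the 32-cell stage 0 of 10 members passed 2-fold in either direction between mimic and control cells. Over all genes tested 11.5% were higher and 7.38% lower. No test stands behind this count, since each group is 1 sample. The largest differences were Tfap2c at 353 against 199 CPM (log2 change 0.82), Cdx2 at 87.7 against 148.3 (-0.75), Tfap2a at 7.63 against 13.0 (-0.70) and Elf3 at 311 against 485 (-0.64). Eomes at 35.6 against 23.7 CPM (0.57), Id2 at 540 against 403 (0.42) and Klf5 at 569 against 441 (0.37) were on the higher side. Gata3 (-0.19) and Ovol1 (-0.023) were nearest to 0. Without the larger control run of titles (24 cells) the changes of Ovol1 (1.90) and Tfap2a (-1.21) were past 2-fold, and with the mean of log2 values over cells in place of pooled CPM those of Cdx2 (-1.15) and Tfap2c (1.06) were.

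The runs of cell titles give a view of the spread within each group. Control cells formed 2 runs (24 and 15 cells) and mimic cells 3 runs (18, 12 and 9 cells). Tfap2c lay between 183 and 211 CPM in the control runs and between 335 and 364 in the mimic runs. Id2 lay between 354 and 436 in control and between 450 and 713 in mimic runs. The classes described below were mixed differently in these runs, with 7 TE-like cells of 24 and 7 of 15 in the control runs and 11 of 18, 7 of 12 and 7 of 9 in the mimic runs. Within TE-like cells the runs overlapped in Id2, at 640 to 857 CPM in control and 644 to 822 in mimic runs. Cdx2 lay between 146.6 and 150.9 in control and between 48.5 and 107.7 in mimic runs, and Elf3 between 377 and 557 and between 286 and 325. Thus 2 members were higher and 2 lower in every mimic run than in every control run, of 9 tested, beside 16.4% and 14.8% of all genes tested. Runs of the other 5 tested members overlapped, and Eomes varied more between mimic runs (9.96 to 52.6 CPM) than between treatments. Single cells overlapped between treatments for every member. Tfap2c, for example, ranged from 0 to 455 CPM with a median of 167.5 in control cells and from 153.7 to 631 with a median of 335 in mimic cells.

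**Figure D2:**
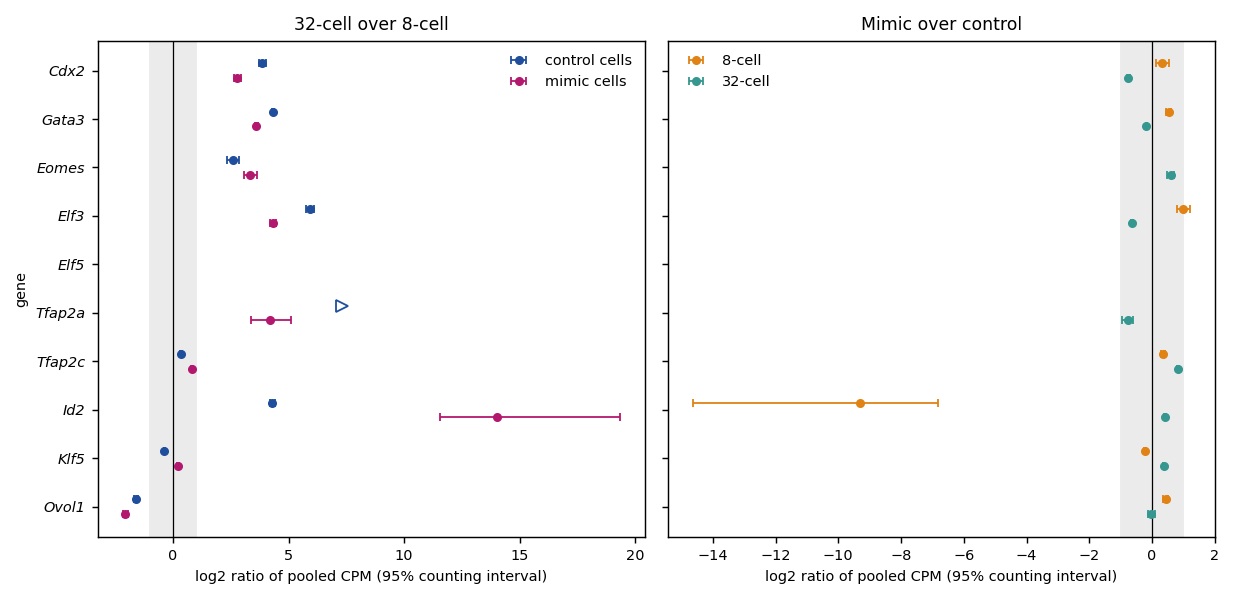
Points are log2 ratios of pooled CPM for members with at least 5 CPM in either group, bars are 95% counting intervals, the shaded band marks less than 2-fold, and the open triangle is the ratio of Tfap2a to a level of 3 counts, since it had no count in 8-cell control cells. The left panel compares stages within each treatment and the right panel treatments within each stage, where Id2 at the 8-cell stage is the point far to the left with an interval set by 1 count.

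The other lists at the 32-cell stage had 1 higher and 3 lower of 13 upstream regulators (Notch1 higher, Tead1 and Tead2 among the lower), 1 higher and 2 lower of 15 effectors (Krt19 higher, Atp1b1 and Tspan8 lower) and 1 higher and 3 lower of 12 other trophoblast factors (Grhl1 higher, Gata2 and Ets2 among the lower). Of 19 paralogues 2 were higher and 2 lower, and of 8 pluripotency factors 0 were higher and 1, Prdm14, was lower, from 8.17 to 1.05 CPM. The numbers that met the minimum were 12, 15, 7, 9 and 8, in the order of these lists.

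Cells of the 32-cell stage were next divided into classes without using any of the 10 genes. Clustering on variable genes, with all list genes left out, gave 2 clusters of 32-cell cells. With both treatments pooled, in 1 of them all 9 trophectoderm markers (Krt8, Krt18, Krt7, Krt19, Fgfr2, Dab2, Tspan8, Lrp2 and Cldn4) were higher, and in the other all 9 ICM markers (Nanog, Sox2, Fgf4, Gdf3, Tdgf1, Spic, Pdgfra, Klf2 and Fgfr1), and they are called TE-like and ICM-like. Krt19 differed little, at 4.31 against 3.76 CPM. In control cells Krt19 was at 2.38 CPM in TE-like and 0 in ICM-like cells, but in mimic cells at 5.61 and 10.8 CPM. The 10 genes with the largest ratio in either cluster included none of these markers. Control cells comprised 14 TE-like and 25 ICM-like cells (35.9% TE-like, 21.2 to 52.8), and mimic cells 25 and 14 (64.1%, 47.2 to 78.8). These binomial intervals treat cells as independent, although cells may share embryos. This split of the mimic cells moved with the method, from 21 to 30 TE-like cells, while that of the control cells was 14 and 25 in all 4 ways tried. The classes come from the same cells in which the members were then measured, so what follows is a description.

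In control cells 6 members were higher by 2-fold or more in TE-like cells and 0 were lower, beside 12.8% and 17.04% of all genes tested. In mimic cells 5 were higher and 0 lower, beside 12.8% and 11.9%. The 5 were Cdx2, Gata3, Elf3, Id2 and Ovol1, and Tfap2a was the 6th in control cells. The median change of the tested members was 2.22 in control and 1.20 in mimic cells, beside -0.096 and -0.042 over all genes tested.

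Gata3 was at 2884 CPM in TE-like and 528 in ICM-like control cells, and at 1853 and 317 in mimic cells. Its lowest TE-like control value, 753 CPM, lay below its highest ICM-like value, 1403, so the classes overlapped. Every ICM-like control cell held Gata3, the lowest with 78.8 CPM. Id2 came close to a separation in control cells, where TE-like cells ranged from 405 to 1292 CPM and ICM-like cells from 15.4 to 423. In mimic cells the Id2 ranges overlapped widely, from 6.62 to 1541 CPM in TE-like and from 3.68 to 801 in ICM-like cells, although the pooled levels of 729 and 151.2 CPM were near the control levels of 764 and 134.

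Cdx2 was at 285 CPM in TE-like and 46.4 in ICM-like control cells and was found in 14 of 14 and 20 of 25 of them. In mimic cells it was at 122 and 16.99 CPM and was found in 23 of 25 and 6 of 14 cells. Elf3 showed a smaller contrast, with 756 against 282 CPM in control and 382 against 165.7 in mimic cells. Ovol1 was found in 6 of 14 TE-like and 2 of 25 ICM-like control cells and in 12 of 25 and 1 of 14 mimic cells. Its control contrast was 44.9 against 4.12 CPM. The TE-like level was 76.1 CPM in the run of 24 cells (5 of 7 TE-like cells) and 2.89 in the other run (1 of 7), and without the run of 24 the log2 change was -0.97 in place of 3.17. Tfap2a was at 24.5 against 4.45 CPM in control cells but 8.68 against 5.45 in mimic cells, where the log2 change of 0.59 became 1.02 without 1 cell. Leaving out 1 cell also moved the control change of Tfap2a from 2.22 to 3.55 and that of Ovol1 to between 2.19 and 4.10, and the mimic change of Ovol1 from 3.20 to 4.97.

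Eomes, Tfap2c and Klf5 did not reach 2-fold between the classes in either treatment. Eomes was at 29.8 CPM in TE-like and 19.04 in ICM-like control cells and at 42.3 and 21.8 in mimic cells, where 1 ICM-like cell at 244 CPM carried 64.4% of the summed CPM. Without that cell the log2 change of Eomes in mimic cells was 1.91 in place of 0.93. Tfap2c was at 227 and 179 CPM in control and 380 and 296 in mimic cells. Klf5 was at 527 and 376 CPM in control and 617 and 471 in mimic cells. Elf5 had no count in the 39 ICM-like cells and was found in 2 of 14 TE-like control cells and 2 of 25 TE-like mimic cells.

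**Figure D3:**
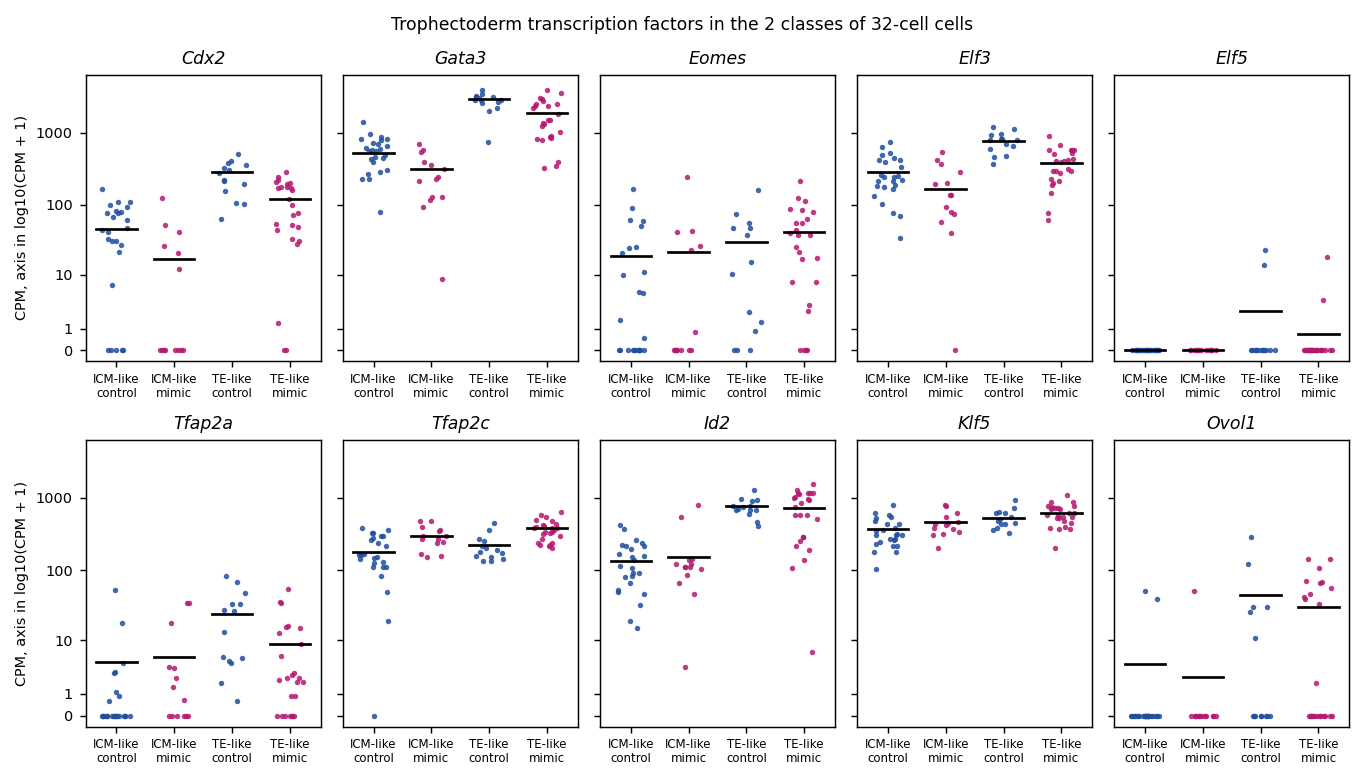
Each point is 1 cell of the 32-cell stage and each black bar the pooled CPM of a class and treatment, with CPM on an axis scaled as log10(CPM + 1). Cdx2, Gata3, Elf3 and Id2 sit higher in TE-like cells of both treatments, with overlapping cells, while Tfap2c and Klf5 differ little between the classes and Tfap2c is higher in mimic cells of both.

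Mimic and control cells were then compared within each class. In TE-like cells 0 members were higher and 2 lower by 2-fold or more, beside 17.4% and 9.80% of all genes tested. The count of 0 higher turned with 1 run, since the change of Ovol1 was -0.55 over all TE-like cells, 3.01 without the control run of 24 cells, -1.30 without that of 15 and up to 0.43 with 1 cell left out. In ICM-like cells 0 were higher and 1 lower, beside 15.7% and 13.1%. Cdx2 was lower in both, by a log2 change of -1.22 in TE-like cells (122 against 285 CPM) and -1.40 in ICM-like cells (16.99 against 46.4). Its TE-like level was 283 and 287 CPM in the 2 control runs and 73.3, 129.3 and 153.8 CPM in the 3 mimic runs. The ICM-like difference depended on how the classes were drawn, at -0.57 when cells were divided by their marker score, and reached -1.92 without 1 cell. Tfap2a was lower in TE-like mimic cells (-1.40, 8.68 against 24.5 CPM), with 20.5 and 29.9 CPM in the control runs and 5.23 to 12.4 in the mimic runs.

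Elf3 lay next to the limit in TE-like cells, at 382 against 756 CPM (-0.98). It passed the limit in 8 of 19 alternative settings, and when any 1 of 9 cells was left out. Its TE-like level was 584 and 883 CPM in the control runs and 313 to 431 CPM in the mimic runs. Gata3 was at 1853 against 2884 CPM (-0.64) in TE-like and 317 against 528 (-0.73) in ICM-like cells. Tfap2c was the member furthest on the higher side in both classes, with changes of 0.74 and 0.72. Id2 was near 0 in both, at -0.068 and 0.18. Eomes was at 0.49 and 0.18 and Tfap2a in ICM-like cells at 0.24, and without 1 cell each Eomes reached 1.03 in TE-like cells and -0.80 in ICM-like cells and Tfap2a 1.56. Of the 8 members with at least 20 CPM in both treatments of TE-like cells, 5 had a higher coefficient of variation between mimic than between control cells, beside 54.6% of 5924 genes. In ICM-like cells it was 3 of 5 members beside 62.6% of genes, and over all 39 cells of each treatment 2 of 8 members beside 57.2%. For Gata3 the coefficient was 58.9% in mimic and 27.3% in control cells of the TE-like class, but 88.7% and 86.2% over all cells. For Id2 it was 61.8% and 29.3% in TE-like cells and 87.1% and 91.8% over all cells.

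For the other lists, within TE-like cells 2 upstream regulators were higher and 5 lower in mimic cells, 0 effectors were higher and 3 lower, 2 other trophoblast factors were higher and 2 lower, 2 paralogues were higher and 2 lower, and 1 pluripotency factor was higher and 0 lower. Grhl1, an epithelial factor, had the largest difference of the other trophoblast factors, at 27.1 against 1.56 CPM. Among ICM-like cells the corresponding counts were 1 and 2, 1 and 2, 0 and 2, 2 and 1, and 0 and 2. The numbers that met the minimum were 12, 15, 6, 10 and 6 in TE-like and 11, 14, 6, 8 and 8 in ICM-like cells, in the order of the lists. Between the classes, the 15 effectors include all 9 markers that gave the TE-like class its name, so only the other 6 (Cldn6, Cldn7, Tjp1, Atp1b1, Aqp3 and Dsp) are counted, of which 4 were higher in TE-like control cells and 2 in TE-like mimic cells, with 0 lower in either. The upstream regulators had 5 higher and 2 lower of 12 that met the minimum in TE-like control cells and 2 higher and 0 lower of 11 in mimic cells, led by Amotl2 in both. Other trophoblast factors had 1 higher and 2 lower of 7 in control and 2 higher and 0 lower of 5 in mimic cells. Paralogues had 2 higher and 1 lower of 10 in control cells and 1 higher and 2 lower of 8 in mimic cells. Of the 8 pluripotency factors, Nanog, Sox2 and Klf2 are also ICM markers, and of the other 5, 2 were lower and 0 higher in TE-like control cells and 0 of the 4 that met the minimum were lower or higher in mimic cells.

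Whether the members rise and fall together from cell to cell was examined as Spearman's rho of CPM over the 39 cells of each 32-cell group, with no p-value, since cells may share embryos. The median over the 45 pairs of members was 0.28 in control and 0.26 in mimic cells, and 41 and 42 pairs were above 0. The 6 pairs among Cdx2, Gata3, Elf3 and Id2 all stood above these medians, between 0.55 and 0.77 in control and between 0.44 and 0.72 in mimic cells. These 4 genes were also higher in TE-like cells of both treatments, so rho over all 39 cells includes the difference between the classes. Gata3 and Id2 were the highest pair in both treatments, at 0.77 and 0.72. Elf3 and Id2 followed at 0.68 and 0.71, and Cdx2 stood at 0.62 and 0.64 with Gata3 and at 0.63 and 0.60 with Id2. All 4 genes were detected together in 34 of 39 control and 29 of 39 mimic cells, against 0 of 54 cells at the 8-cell stage, where their 6 pairs lay between -0.12 and 0.24 in control and between -0.23 and 0.17 in mimic cells. Few cells held these genes at the 8-cell stage, which limits both values there. Id2 was found in 1 of 24 mimic cells, and Cdx2, Elf3 and Id2 in 7, 6 and 9 of 30 control cells.

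Tfap2a joined this group in control cells, at 0.64 with Gata3 and 0.55 with Cdx2, and less so in mimic cells, at 0.31 and 0.32. Ovol1, detected in few cells, was at 0.59 with Elf3 in mimic and 0.48 with Gata3 in control cells. Tfap2c and Klf5, both widely present, were at -0.11 and -0.042 with each other. Eomes was at 0.056 and 0.28 with Gata3 and at 0.24 and 0.27 with Cdx2. Thinning to equal depth gave medians of 0.27 and 0.25 over the pairs. At this stage rho of a member with the total count lay between -0.13 and 0.39.

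**Figure D4:**
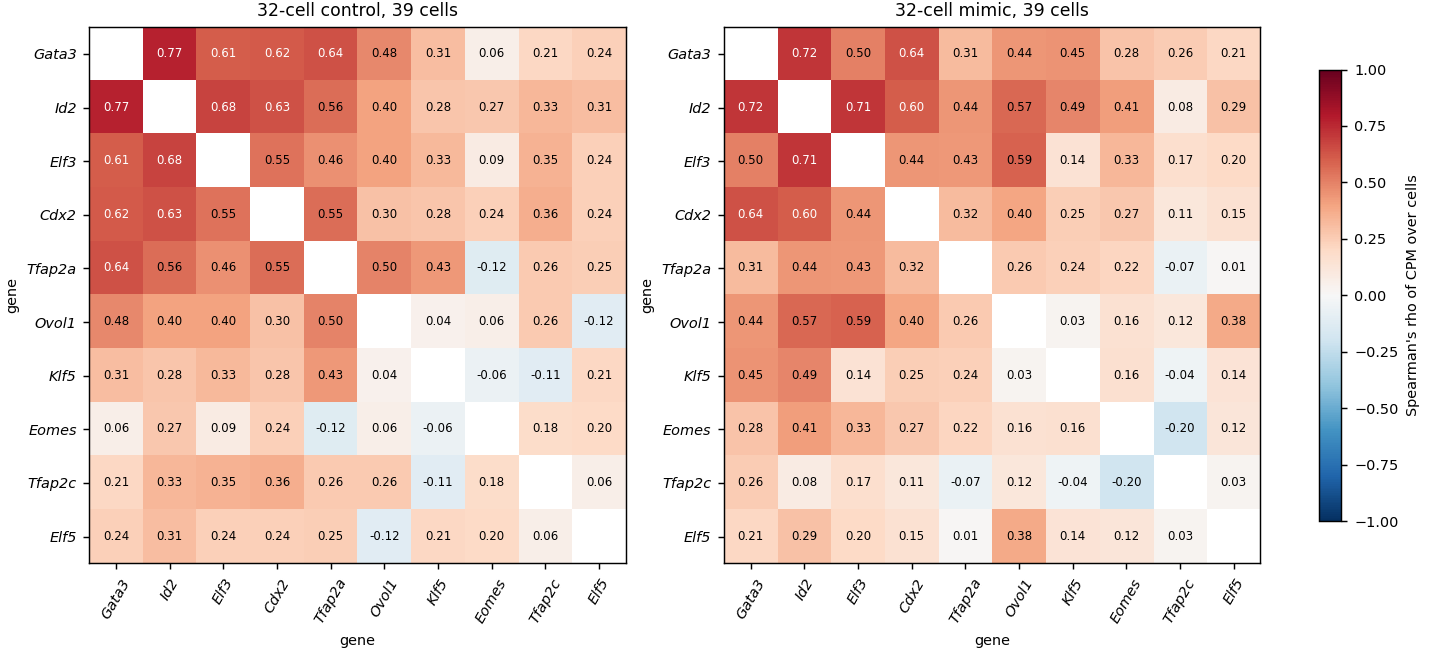
Each square is Spearman's rho of CPM between 2 members over 39 cells, in 32-cell control cells on the left and 32-cell mimic cells on the right, on a colour scale from -1 to 1. The upper left block of Gata3, Id2, Elf3 and Cdx2 runs from 0.55 to 0.77 in control and from 0.44 to 0.72 in mimic cells, and the columns of Eomes and Tfap2c are paler.

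Within single classes most of these values differed from those over all 39 cells. Within the 25 ICM-like control cells Gata3 and Id2 had a rho of 0.40, and within the 14 TE-like control cells -0.015. Within mimic cells the same pair was at -0.42 over 14 ICM-like and 0.65 over 25 TE-like cells. Cdx2 and Gata3 were at -0.084 and 0.38 within the control classes and at -0.15 and 0.47 within the mimic classes, in the same order. Cdx2 and Id2 were at -0.37 in TE-like control and 0.56 in TE-like mimic cells. Elf3 with Cdx2, Gata3 and Id2 was at -0.055, -0.19 and -0.020 in TE-like control and 0.39, 0.33 and 0.65 in TE-like mimic cells. In ICM-like cells these 3 pairs were at -0.023, 0.11 and 0.22 in control and -0.15, -0.17 and 0.46 in mimic cells. With 14 to 25 cells these values are loosely fixed, and a difference between treatments was not tested.

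**Figure D5:**
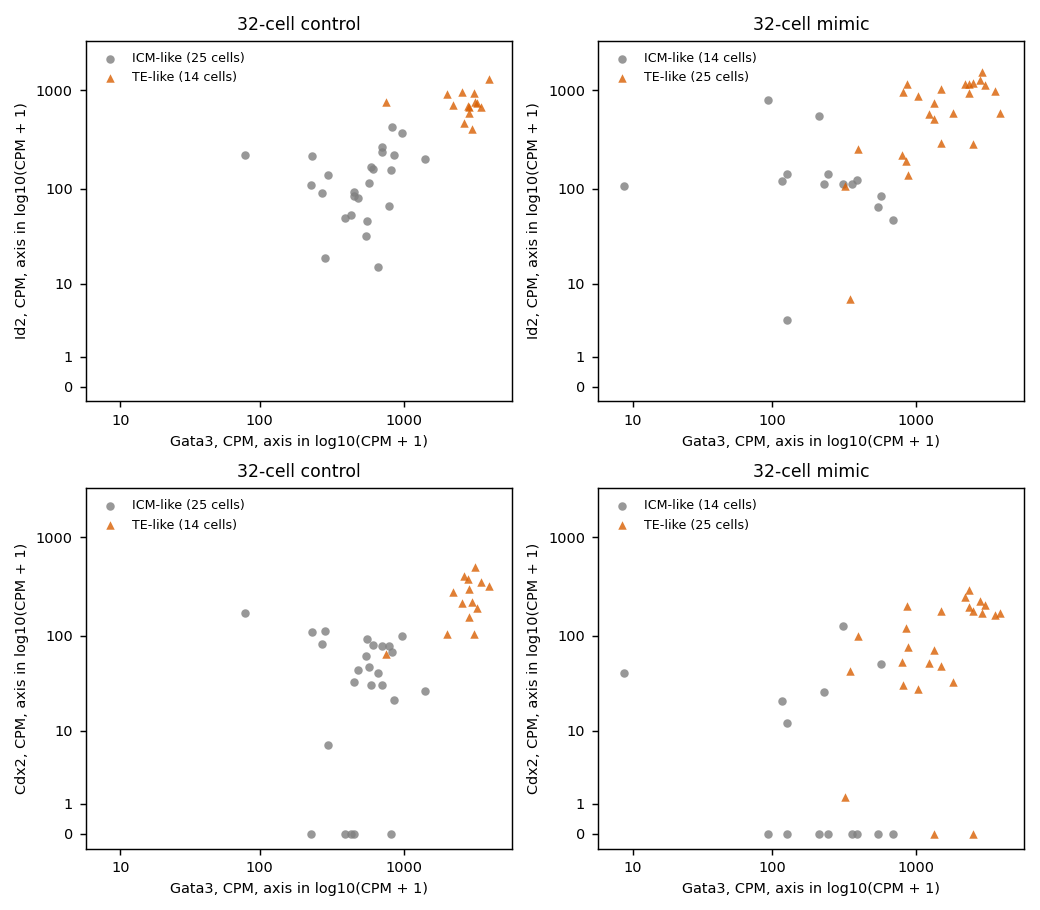
Points are cells of the 32-cell stage by their Gata3 level on the horizontal axis and their Id2 (upper panels) or Cdx2 (lower panels) level on the vertical axis, in CPM scaled as log10(CPM + 1), with ICM-like cells as circles and TE-like cells as triangles. TE-like control cells all lie at 405 CPM of Id2 or above and at 753 CPM of Gata3 or above, while TE-like mimic cells reach down to 6.62 CPM of Id2.

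For the 8 members at 20 CPM or more in both 32-cell groups, the genes with the most similar pattern were sought among 6165 others by the mean of the control and mimic rho. Id2 was closest to Krt18 (0.82), Lrp2 (0.80) and Krt8 (0.77), the simple-epithelium keratins and an endocytic receptor of the trophectoderm. Gata3 was closest to Ap2a2 (0.86), Slc2a3 (0.83) and Gm2a (0.81), which encode an endocytic adaptor subunit, a glucose transporter and a lysosomal activator. Elf3 was closest to Krt8 (0.74), Id2 (0.70) and Gm2a (0.69), and Cdx2 to Ptges (0.68), Gcnt1 (0.65) and Dab2 (0.64). The other members had lower top values. Klf5 was closest to Actb (0.56), Tpm3 (0.56) and Acot2 (0.52), and Ovol1 to Fgfbp1 (0.57), Anxa3 (0.57) and Emp2 (0.55). Tfap2c was closest to Uap1l1 (0.43), Stk40 (0.41) and Dtl (0.39), and Eomes to Mbp (0.42), Dipk1a (0.41) and Abca3 (0.40).

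The ranking of members within these lists differed in the same way. For Cdx2, Gata3 was 7th and Id2 9th of 6165 genes, while Eomes was 508th and Tfap2c 587th. For Gata3, Id2 was 12th, Cdx2 51st and Elf3 92nd. For each of the 8 members the median rho over all genes was between -0.013 and 0.015, and the 95th percentile was between 0.21 and 0.38. At the other end, Sox2, an ICM factor, was 6158th for Gata3 (-0.61), 6132nd for Id2 (-0.52) and 6124th for Cdx2 (-0.42). Nanog stood less far down, at 6106th for Cdx2 (-0.40), 5757th for Gata3 (-0.28), 5685th for Id2 (-0.26), 5125th for Elf3 (-0.17) and 3425th for Tfap2c (-0.0024). For Eomes the order was the reverse, with Nanog 5985th (-0.25) and Sox2 5946th (-0.24).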

How the data were processed

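Per the labels, single cells of mouse embryos were profiled by Smart-seq2. The table deposited by the authors holds raw expected counts for every gene in each cell, and the submitters' processing notes name STAR (version 2.5.1b), RSEM (version 1.3.0) and the mm10 build. All values were whole numbers, so they needed no rounding. Reads carry no molecular identifiers, so the intervals of levels and ratios cover the counting of reads, not of RNA molecules. The study's filter (at least 3000 genes and under 10% mitochondrial counts) removed 0 cells, and no 2 cells were identical. Doublets were not called, since cells were picked singly.

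Samples were grouped by stage and treatment from the labels, 0 columns belonged to other samples, and cells were pooled because no label gives a cell's embryo. Counts of 13 mitochondrial genes were left out, counts were summed over cells, and CPM, exact Poisson and Clopper-Pearson intervals and exact conditional intervals of ratios were computed in Python (version 3.11.15) with scipy (version 1.17.1). A difference was counted at 1 or more in log2(CPM + 1) with 5 CPM in either group, which understates changes of low genes. The call was tried on simulated counts, with changes planted only in genes at 20 CPM or more and no difference between embryos. It was thus not tried for low genes or for spread between embryos. The lowest total without mitochondrial genes was 522178 counts, and 3 counts, the limit for a count of 0, over a pooled group are 0.053 to 0.097 CPM. The members' names and all lists were chosen with earlier results of these data known. The text names all 10 members, the 3 genes most alike to each, and at most 3 genes of any other list with the largest change. Sox2 and Nanog were added as ICM factors for the ranks, after their values were seen.

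Clusters came from Seurat (version 5.3.0) in R (version 4.3.3), with 2000 variable genes, 25 principal components and a resolution raised from 0.6 in steps of 0.2 until 32-cell cells divided, which was at 0.8. Sequences and positions are from RefSeq and GENCODE M21, both on the authors' build. Alternatives included edgeR (version 4.0.16) TMM and DESeq2 (version 1.42.0) size factors on pooled counts, used for scaling alone.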

Additional observations from a re-analysis of the deposited data

How the results depend on the processing

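The counts of members past 2-fold between stages (7 in either treatment) and between classes (6 and 5) stayed within 1.5 times under every alternative tried. Counts for the mimic moved more. At the 8-cell stage the count of 1 became 2 with the mean of per-cell log2(CPM + 1), and 3 with cells holding Xist alone or with Y-linked counts above Xist alone. It was 2 to 3 with a control run left out and 1 to 2 with each cell left out. At the 32-cell stage the count of 0 became 2 with the mean of log2 values, and was 0 to 2 with a run left out. In TE-like cells the count of 2 was 2 to 4 with a run left out. In ICM-like cells the count of 1 became 4 with the mean of log2 values, 0 with marker-score classes and 2 with classes drawn without X and Y genes, and was 1 to 2 with a run or a cell left out. The cause was not tested. Of 29 changes past 2-fold, 27 kept their direction in every alternative setting and 22 met the 2-fold call in every one. The stage changes of Tfap2a missed the call only with a minimum of 20 CPM. Their lowest values were 1.85 in control and 1.22 in mimic cells. The exceptions in direction were Id2 at the 8-cell stage without the larger control run (0.046, and -4.50 without the smaller) and Ovol1 between control classes without the larger control run (-0.97, and 4.44 without the smaller). DESeq2 factors moved the median of all genes by -0.12 and -0.19 between stages in control and mimic cells and by -0.12 between treatments in TE-like cells, and TMM factors by -0.12 in mimic cells and by -0.11 between treatments at the 32-cell stage, where the share of higher among all calls was 51.8% in place of 60.9%. No paired analysis was possible because the labels tie no cell to an embryo and no test between groups was run. Each group is 1 sample, so the spread between embryos is unknown. The removal of each cell in turn and of the cell with the fewest genes were chosen after seeing the data.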
